A study of Mus musculus with 6 samples.

Results

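The 9 genes described here write, erase or read DNA methylation, and their transcripts were measured in microglia of the rostral nucleus of the solitary tract (NST), the first brainstem relay for taste, in control mice and in E3–E12 diet mice. The rule took the rows of the deposited table whose gene identifier maps to a fixed list of symbols, without use of any measured value, and all 9 were found among 26789 genes: the writers Dnmt1, Dnmt3a and Dnmt3b, their partner Uhrf1, the erasers Tet1, Tet2 and Tet3, and the readers Mbd1 and Mbd2. Both groups were C57Bl/6 mice at postnatal day 15 (P15). Mothers of E3–E12 diet mice received low-sodium chow from embryonic day 3 to 12 and standard chow afterwards, whereas controls had standard chow throughout. There were 3 RNA-seq libraries per group, and each came from pooled littermates of 1 litter, so the 3 libraries of a group were 3 litters and differences between littermates were averaged within a library. The methods describe cells positively selected with magnetic beads from dissected tissue, while the series' design text names laser tissue microdissection. The labels and the paper's methods also name different library kits and read lengths. These differences could not be settled here.

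DNA methylation in mammals is placed mostly on cytosines followed by guanine (CpG). Dnmt3a and Dnmt3b set new methyl groups, and Dnmt1, brought by Uhrf1 to newly copied DNA, maintains them through cell division. Tet1, Tet2 and Tet3 oxidise the methyl group as a step of its removal, and Mbd1 and Mbd2 bind methylated CpG and bring corepressors.

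Values are normalised read counts as deposited. Library totals ran from about 9400000 to 17200000 normalised counts, which corresponds to roughly 8300000 to 22200000 assigned reads. The paper states a larger number of sequenced reads per sample, and how the 2 figures relate was not examined. Control 2 stood apart: 10640 of its genes were at 0, against 3459 to 7135 in the other libraries. Its microglia markers, 15 genes such as Cx3cr1 and P2ry12, summed to 555768 normalised counts, against 110993 to 347390 in the others. Border macrophage markers (7 genes) summed to 21060 in control 2 and to 5645 to 9847 in the others, and neutrophil markers (5 genes) to 3224 and to 419 to 642. All 15 microglia markers were above 0 in every library. Their sum ran from 112537 to 555768 in controls and from 110993 to 347390 in E3–E12 diet mice. The labelled cell type was thus found, beside markers of other cell types. The log2 fold change (E3–E12 diet minus control) was below 0 in 15 of 15 microglia markers (median -0.28, and 0.23 without control 2). It was above 0 in 7 of 7 astrocyte markers (median 0.93, and 0.68 without control 2). No marker of either list had an unadjusted p under 0.05, and 1 astrocyte marker had groups that did not overlap. Border macrophage markers were below 0 in 6 of 7 (median -0.38, and 0.16 without control 2). Of these 7, 1 had an unadjusted p under 0.05 (1.82% of all genes) and 1 had groups that did not overlap (5.9% of all genes). Below 0 were also 5 of 5 neutrophil, 4 of 4 tested erythroid and 5 of 6 choroid plexus markers. Their medians were -0.52, -1.11 and -1.67, and 0.42, -2.56 and -3.16 without control 2. Astrocyte markers (7 genes) summed to 1738 in control 2 and to between 4723 and 9725 elsewhere, and choroid plexus markers (6 genes) varied from 58.0 to 40440 across libraries. Neuron markers (12 genes) summed to 14149 in control 1, 8490 in diet 1 and between 2604 and 3379 elsewhere. Oligodendrocyte lineage markers (9 genes) summed to 44064 in control 1 and to between 5281 and 24512 elsewhere. Endothelium markers (8 genes) summed to 4550 in control 2 and to between 8697 and 14120 elsewhere. Their median log2 fold change was 1.71, and -0.37 without control 2. In bulk RNA, fewer cells of a type and less RNA per cell cannot be told apart, and the part of these differences in the results was not tested. Fold changes and medians whose sign turned without control 2 are given both ways.

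The promoters show the substrate of the enzymes at their own genes. RefSeq (GRCm38.p6) windows, each running from 250 bases before to 50 bases after a transcript start, were matched for 7 of the 9 genes. These genes had 12 windows with 2 to 57 CpG each, and 11 of the 12 held more than 7, the median over all 32851 promoter windows. The exception was a Dnmt1 window with 2 CpG, while another Dnmt1 window held 33. The motif searched was CG, which reads the same on both strands, and 94.6% of all windows held it at least once. Sequences are printed for the 2 genes with the highest Tet and Dnmt levels and for Dnmt3b, the gene with the widest spread between libraries. They are the 250 bases before the most upstream start matched for each gene, with every CG in capitals. The gene models of Tet3 and Dnmt3a given below reach further upstream, so their printed windows lie inside the gene. Tet3 (chr6:83441679-83441928, minus strand) held 17 CpG in this stretch, Dnmt3a (chr12:3806730-3806979, plus strand) held 38 and Dnmt3b (chr2:153649199-153649448, plus strand) held 21.
Tet3: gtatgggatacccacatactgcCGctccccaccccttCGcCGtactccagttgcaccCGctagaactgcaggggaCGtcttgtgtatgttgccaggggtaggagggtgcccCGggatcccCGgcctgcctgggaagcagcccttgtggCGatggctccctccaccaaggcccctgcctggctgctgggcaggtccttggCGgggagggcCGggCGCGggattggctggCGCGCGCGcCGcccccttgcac
Dnmt3a: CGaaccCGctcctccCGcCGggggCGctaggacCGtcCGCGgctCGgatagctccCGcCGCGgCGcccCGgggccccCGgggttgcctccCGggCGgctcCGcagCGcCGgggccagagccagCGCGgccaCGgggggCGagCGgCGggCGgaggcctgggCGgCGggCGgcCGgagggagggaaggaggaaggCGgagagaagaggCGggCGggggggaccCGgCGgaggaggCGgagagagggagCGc
Dnmt3b: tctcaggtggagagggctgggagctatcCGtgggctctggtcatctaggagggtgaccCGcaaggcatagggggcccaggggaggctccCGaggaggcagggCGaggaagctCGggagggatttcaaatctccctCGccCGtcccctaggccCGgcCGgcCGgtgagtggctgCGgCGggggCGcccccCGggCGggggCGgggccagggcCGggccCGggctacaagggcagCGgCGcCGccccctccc
The files hold RNA only, so whether these CpG were methylated was not measured.

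Of the 3 families, the Tet genes held both the highest and the lowest median level per length, and the order was led by Tet3. Levels of different genes were compared only as normalised counts per kilobase of exonic sequence. On that scale the median over the 6 libraries was 314 for Tet3, 175 for Mbd2, 149 for Dnmt3a, 80.4 for Tet1, 59.4 for Dnmt3b, 57.9 for Dnmt1, 49.4 for Mbd1, 43.8 for Uhrf1 and 12.5 for Tet2. Tet3 was thus at the 91.8th percentile of all genes tested, Dnmt3a at 82.7 and Tet2 at 30.8.

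**Figure D1:**
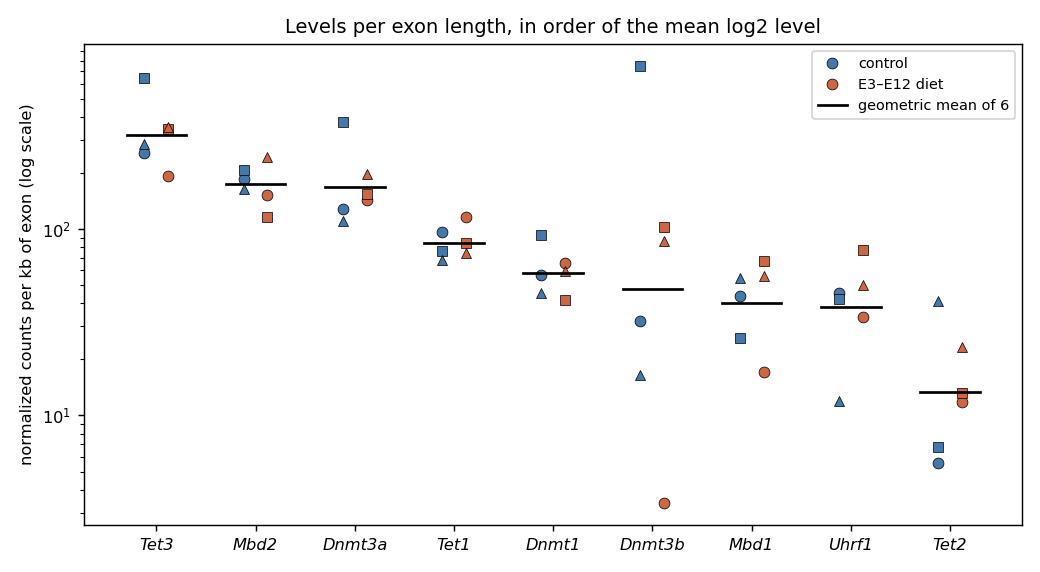
Normalised counts per kilobase of exonic sequence (log axis) of the 9 genes in each of the 6 libraries, ordered by their mean log2 level, with 1 point per library coloured by group and a bar at the geometric mean of the 6. Tet3 lies at the top in 5 libraries, and Dnmt3b spans from 3.39 to 750.

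Ranked by mean log2 level, the order was Tet3, Mbd2, Dnmt3a, Tet1, Dnmt1, Dnmt3b, Mbd1, Uhrf1 and Tet2. The ranking and the comparison of neighbours used the same 6 libraries. The pairs and the direction of each mean difference were thus set by the ranking, and the p-values below are descriptions. Tet3 exceeded its neighbour Mbd2 in 6 of 6 libraries, by 0.89 ± 0.57 on the log2 scale (SD, n = 6; two-sided exact sign-flip permutation test p = 0.03125, adjusted p = 0.125 over 8 pairs). Dnmt3a exceeded Tet1 in 6 of 6 libraries, by 1.001 ± 0.747 (exact sign-flip permutation p = 0.03125, adjusted p = 0.125), and 0.03125 is the smallest p that 6 libraries can give. Tet1 exceeded Dnmt1 in 5 of 6 and Uhrf1 exceeded Tet2 in 5 of 6 (adjusted exact p = 0.167 and 0.25). The neighbours Mbd2 and Dnmt3a, Dnmt1 and Dnmt3b, Dnmt3b and Mbd1, and Mbd1 and Uhrf1 did not differ beyond their spread, with the upper gene higher in 4, 3, 3 and 2 of 6 libraries. No pair passed 0.1 after adjustment. Per length, Uhrf1 was last in control 3 and Dnmt3b in diet 1. Tet1, Tet2, Tet3 and Dnmt3a have long transcripts. Without division by length Dnmt3a and Tet1 stood above Mbd2, and Uhrf1 rather than Tet2 was last.

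The diet comparison asked whether transcripts of this machinery in P15 microglia differed between offspring of mothers with and without early sodium restriction. None of the 9 genes differed between E3–E12 diet mice and controls at an adjusted p under 0.1 (limma on log2 of the normalised count plus 1, two-sided, Benjamini-Hochberg over 18007 genes). In this fit 0% of all genes tested passed that threshold, so this is no property of the 9. The 0% holds for limma on the deposited values. The paper's DESeq2 analysis, also at an adjusted p under 0.1, listed genes in both directions, and none of the 9 was among them. By limma none of the 9 had an unadjusted p under 0.05, against 1.82% of all genes (327). In none of the 9 were the groups free of overlap, against 5.9% of all genes (1062). The log2 fold change was above 0 in 4 genes and below 0 in 5, with a median of -0.092, against 0.087 over all genes. Without control 2 the medians were 0.11 and -0.0042. The adjusted p of limma with Benjamini-Hochberg was 0.999 for each of the 9.

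**Figure D2:**
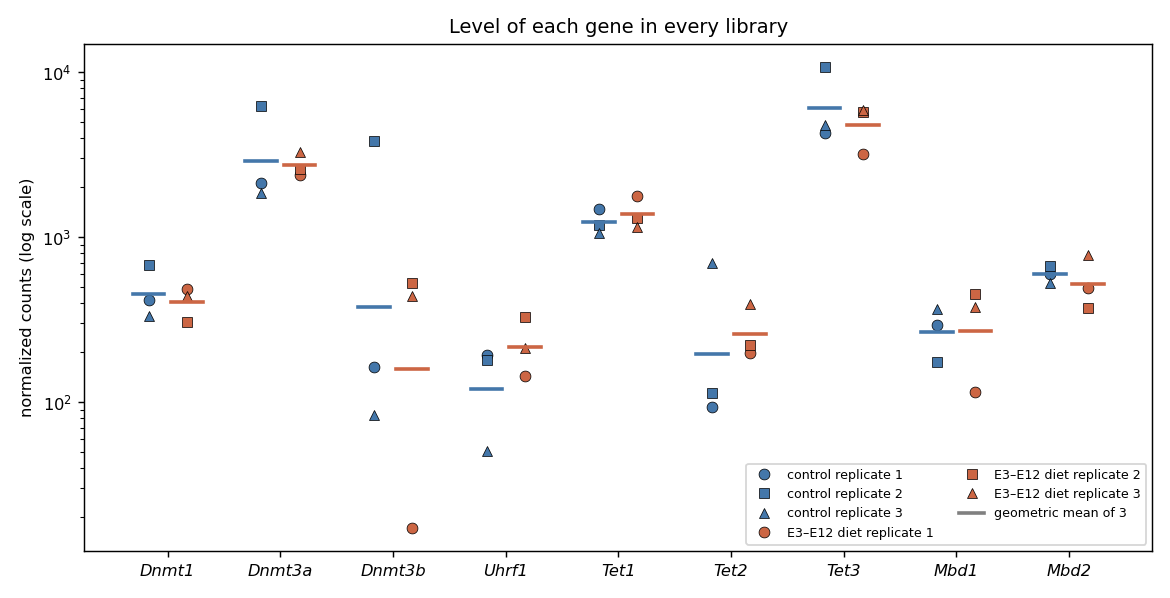
Normalised counts (log axis) of each of the 9 genes by library, with controls and E3–E12 diet mice side by side, 1 symbol per library and a bar at each group's geometric mean. The groups overlap in every gene, and control 2 holds the highest value of Dnmt1, Dnmt3a, Dnmt3b and Tet3.

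Among the writers, Dnmt3a, a de novo methyltransferase, was the most abundant. Dnmt3a (chr12:3806007-3914443, plus strand, GRCm38) had 2126, 6254 and 1838 normalised counts in controls and 2392, 2580 and 3269 in E3–E12 diet mice. The control group held both the highest and the lowest library, and the diet libraries lay between them. The means were 3406 ± 2471 and 2747 ± 462 (SD, n = 3), and the log2 fold change was -0.092 (SE 0.68, 95% CI -1.72 to 1.53). Its sign turned to 0.46 without control 2, to 0.0010 without diet 1 and to 0.028 when every library was scaled to the same total, which moved the median of all genes from 0.087 to 0.20, and to 0.11 after quantile normalisation. An antisense transcript, Dnmt3aos, shares 133 exonic bases with Dnmt3a and had 0 to 41.8 normalised counts.

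Dnmt3b, the other de novo enzyme, varied most of the 9. Dnmt3b (chr2:153649450-153687730, plus strand) had 164, 3831 and 84.1 normalised counts in controls and 17.3, 523 and 442 in E3–E12 diet mice. Control 2 was far above all other libraries, and diet 1 was the lowest, 221-fold below it. The means were 1360 ± 2140 and 328 ± 272 (SD, n = 3). The log2 fold change was -1.22 (SE 1.87, 95% CI -5.68 to 3.24) with all libraries and 0.45 without control 2, and it lay at 0.35 without diet 1. The spread within groups was larger than in 93.6% of genes tested. In diet 1 the value corresponded to roughly 15.2 reads, an approximate figure because reads were not recovered from the deposited values. Part of the Dnmt3b exonic sequence (9.81% of 50-base windows) is shared with its near copy Dnmt3c, which had 0 to 7.94 normalised counts.

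Dnmt1, the maintenance enzyme, was steadier. Dnmt1 (chr9:20907209-20959888, minus strand) had 416, 681 and 333 normalised counts in controls and 484, 308 and 439 in E3–E12 diet mice. Again control 2 was the highest, and the remaining 5 libraries were mixed. For Dnmt1 the log2 fold change was -0.18 (SE 0.59, 95% CI -1.58 to 1.22), with 0.11 without control 2 and 0.018 without diet 2.

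Uhrf1, which recognises hemimethylated DNA and recruits Dnmt1, had a median level per kilobase at percentile 55.2 of genes tested. Uhrf1 (chr17:56303321-56323486, plus strand) had 194, 179 and 50.8 normalised counts in controls and 144, 329 and 212 in E3–E12 diet mice. Diet 2 and diet 3 lay above all controls and diet 1 lay among them. The log2 fold change of 0.83 was the largest positive value of the 9 (SE 0.75, 95% CI -0.97 to 2.63), and it was positive without any 1 library, between 0.21 without control 3 and 1.17 without control 1. Uhrf1 shares 15.4% of its 50-base windows with annotated copies. How reads from such stretches were assigned was not examined, so the size of the resulting uncertainty is not known. A copy, Gm15953, had 11.2 to 70.9 normalised counts, and in control 3 it exceeded Uhrf1.

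Tet3 was the most abundant eraser. Tet3 (chr6:83362373-83459084, minus strand) had 4273, 10729 and 4747 normalised counts in controls and 3205, 5739 and 5897 in E3–E12 diet mice. Control 2 was the highest library and diet 1 the lowest, with the other 4 between 4273 and 5897. The means were 6583 ± 3598 and 4947 ± 1511 (SD, n = 3). For Tet3 the log2 fold change was -0.33 (SE 0.65, 95% CI -1.88 to 1.21), and 0.083 without control 2.

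Tet1 was the steadiest of the 9. Tet1 (chr10:62804570-62908996, minus strand) had 1488, 1177 and 1055 normalised counts in controls and 1783, 1308 and 1146 in E3–E12 diet mice. The highest library was 1.69-fold above the lowest, and the spread within groups was smaller than in all but 2.50% of genes tested. The groups still overlapped. For Tet1 the log2 fold change was 0.18 (SE 0.55, 95% CI -1.13 to 1.48), and -0.0030 without diet 1.

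Tet2, known in blood cells as a regulator of myeloid gene expression, had the lowest median level per length. Tet2 (chr3:133463679-133545139, minus strand) had 93.5, 114 and 696 normalised counts in controls and 199, 222 and 395 in E3–E12 diet mice. Control 3 was the highest library, and the 3 diet libraries lay between it and the other two controls. For Tet2 the log2 fold change was 0.41 (SE 0.91, 95% CI -1.77 to 2.58). It was 1.32 without control 3, -0.12 without control 1 and 0.021 without control 2. An antisense gene, Gm42567, overlaps 43 exonic bases of Tet2.

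The readers Mbd1 and Mbd2 lie on chromosome 18. Mbd2, a subunit of the NuRD corepressor complex, had 598, 669 and 529 normalised counts in controls and 489, 374 and 781 in E3–E12 diet mice. The controls lay close together at 599 ± 69.7, and the diet libraries lay on both sides of them at 548 ± 210 (SD, n = 3). The log2 fold change of Mbd2 was -0.19 (SE 0.57, 95% CI -1.56 to 1.18), and 0.052 without diet 2. Mbd1, which also binds methylated CpG and represses transcription, had 293, 175 and 368 normalised counts in controls and 115, 454 and 377 in E3–E12 diet mice. The diet group held both the lowest and the highest library. Its log2 fold change was 0.019 (SE 0.75, 95% CI -1.76 to 1.80), and the sign turned without control 2 (-0.28), diet 2 (-0.36) or diet 3 (-0.22) and after quantile normalisation (-0.17).

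**Figure D3:**
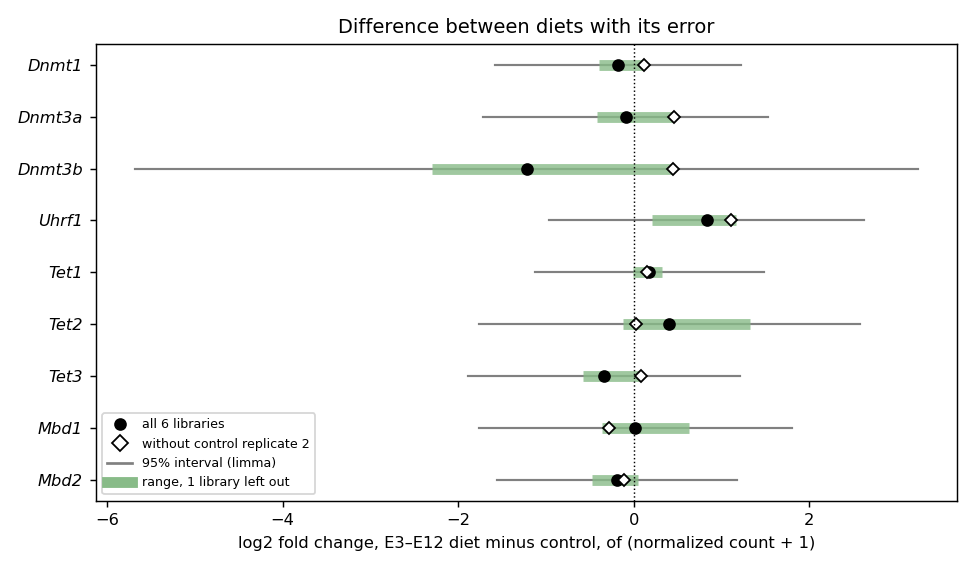
Log2 fold change (E3–E12 diet minus control) of the 9 genes with the 95% confidence interval of limma (thin line) and the range over the 6 fits that each leave out 1 library (thick bar), with a point for all libraries, a diamond for the fit without control 2 and a dotted line at 0. Every interval includes 0, and of the thick bars that of Uhrf1 alone, 0.21 to 1.17, does not cross it.

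The intervals give the range of differences that the fit allowed. The narrowest, that of Tet1, ran from -1.13 to 1.48, and that of Dnmt3b allowed far more. Exact two-sided permutation tests of the log2 level, 3 libraries against 3, gave p between 0.4 (Uhrf1) and 1 (Dnmt3a), where 0.1 is the smallest p this design can give.

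Shares within a family do not change when a library is scaled by 1 factor, and they were not recomputed after quantile normalisation. Computed per kilobase, Dnmt3a made up 59.1%, 30.8% and 64.2% of the Dnmt sum in controls and 67.6%, 51.8% and 57.3% in E3–E12 diet mice. It was the largest Dnmt share in every library but control 2, where Dnmt3b held 61.6%. Dnmt3b ranged from 1.59% in diet 1 to that value, and Dnmt1 from 7.58% in control 2 to 30.8% in diet 1. The Dnmt3a share was 51.4% ± 18.0 in controls and 58.9% ± 8.01 in E3–E12 diet mice (SD, n = 3; exact permutation p = 0.7, adjusted p = 1 over 4 measures), and the difference turned from 7.54 to -2.72 percentage points without control 2.

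In the Tet sum, Tet3 held 71.5%, 88.6% and 72.2% in controls and 60.2%, 77.9% and 78.4% in E3–E12 diet mice, the largest share in all 6 libraries. Tet1 held 10.5% to 36.1%. Tet2 held 1.55%, 0.930% and 10.5% in controls and 3.69%, 2.99% and 5.19% in E3–E12 diet mice, so 1 control lay above and 2 lay below every diet library. Its share was 4.32% ± 5.34 against 3.96% ± 1.13 (SD, n = 3; exact permutation p = 1, adjusted p = 1), and the difference of -0.36 percentage points turned to 2.72 without control 3 and to 0.12 without diet 2. Mbd2 made up 81.6% ± 6.96 of Mbd1 plus Mbd2 in controls and 78.1% ± 13.6 in E3–E12 diet mice (exact permutation p = 0.9, adjusted p = 1), and the difference of -3.49 percentage points turned to 0.14 without control 2 and to 3.96 without diet 2.

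**Figure D4:**
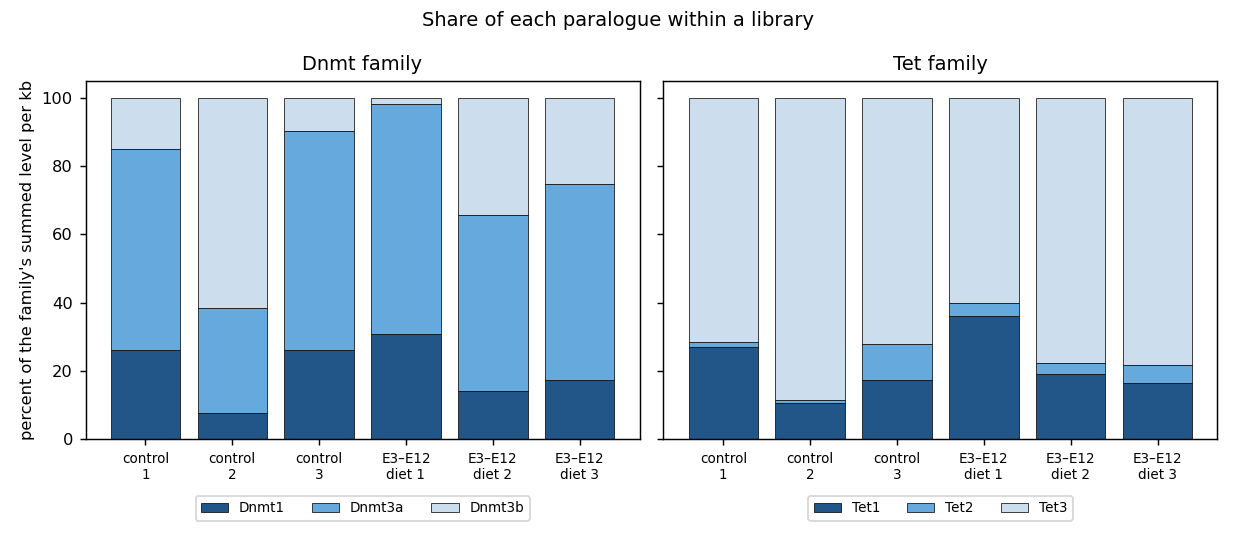
Share (percent) of each gene in the summed level per kilobase of its family, with 1 stacked bar per library for the 3 Dnmt genes and for the 3 Tet genes. Tet3 is the largest Tet share in all 6 libraries, and Dnmt3b exceeds Dnmt3a in control 2 alone.

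The ratio of writers to erasers overlapped between groups with all libraries. The log2 ratio of the summed Dnmt to the summed Tet level per kilobase was -0.73, 0.75 and -1.19 in controls and -0.59, -0.56 and -0.40 in E3–E12 diet mice. Tet transcripts exceeded Dnmt transcripts in 5 of 6 libraries, and control 2, with its high Dnmt3b, was the exception. The means were -0.39 ± 1.01 and -0.51 ± 0.10 (SD, n = 3; exact permutation p = 1, adjusted p = 1). Without control 2 the difference turned from -0.12 to 0.45, with both remaining controls below the 3 diet libraries. The exact permutation p was then 0.2, the smallest that these remaining libraries can give.

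Relations of the 9 genes to the level of the microglia markers were examined after the values had been seen, and none passed the adjustment. Over the 6 libraries of both groups, Tet3 was the gene closest in rank to the mean log2 level of the 15 markers (Pearson r = 0.84, permutation p = 0.0139, adjusted p = 0.233 over 18 relations; Spearman rho = 0.94, permutation p = 0.0167, adjusted p = 0.3). Without control 1 and diet 1, the libraries farthest from the median of the marker level, r was 0.77, and with every library scaled to the same total it was 0.50. Tet1 had the opposite sign (r = -0.89, permutation p = 0.0389, adjusted p = 0.233; rho = -0.77, permutation p = 0.103, adjusted p = 0.394), with r at -0.37 without those 2 libraries, on which the relation then rests. For Tet1 r was -0.93 with equal totals and -0.92 without control 2. For Dnmt3a r was 0.59 as deposited and -0.015 with equal totals, and for Dnmt1 it was 0.16 and -0.78. Without control 2 r was 0.30 for Dnmt3a and -0.52 for Dnmt1. The points share library and scaling, and the within-group values, with 3 libraries each, are too few to give.

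**Figure D5:**
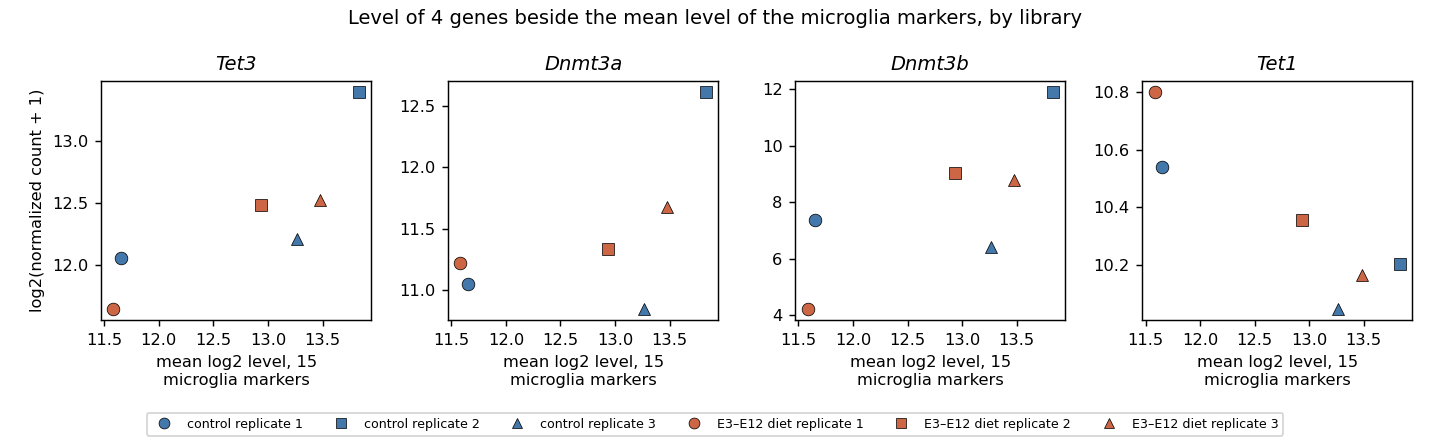
Log2 level of Tet3, Tet1, Dnmt3a and Dnmt3b against the mean log2 level of 15 microglia markers, 1 panel per gene with its own vertical scale and 1 point per library coloured by group. Tet3 lies higher and Tet1 lower where the markers are higher, with r = 0.84 and r = -0.89 over 6 libraries, and neither passed the adjustment.

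Cell division is when Dnmt1 and Uhrf1 act, so 20 proliferation genes were read beside them. Their mean log2 level ran from 6.26 to 7.21 in controls and from 6.23 to 7.53 in E3–E12 diet mice. Of the 20, 9 had a positive and 11 a negative log2 fold change, with a median of -0.057 (0.081 without control 2). Of these genes, 0 passed the adjusted threshold and 0 had an unadjusted p under 0.05. Groups did not overlap in 1 of the 20, against 5.9% of all genes. It was Cdk1, the kinase that drives entry into mitosis. It had 45.4, 70.2 and 57.2 normalised counts in controls and 128, 77.3 and 154 in E3–E12 diet mice (log2 fold change 1.01, SE 0.58, adjusted p = 0.999 by limma with Benjamini-Hochberg). Rrm1, a subunit of ribonucleotide reductase, had 150, 1057 and 141 against 142, 64.04 and 65.3 (log2 fold change -1.73, SE 0.95), and -0.78 without control 2. Dnmt1 and Uhrf1 gave r = 0.45 (rho = 0.71) and r = 0.033 (rho = -0.37) with the mean of these genes (permutation p = 0.408 and 0.911 for r, 0.136 and 0.497 for rho, adjusted p = 0.675 and 0.994 for r, 0.394 and 0.746 for rho). Without control 1 and diet 1, r was 0.94 and 0.069, with no test made. There r was also far from 0 for Tet3 (0.96), Dnmt3a (0.90), Dnmt3b (0.84), Tet2 (-0.76) and Mbd1 (-0.99). Over all 6 libraries Tet1 had the largest r of the 9 members (0.87, permutation p = 0.0306, adjusted p = 0.233), and -0.0095 without control 1 and diet 1. Mbd1 had the most negative rho (-0.89, permutation p = 0.0333, adjusted p = 0.3).

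Other genes of the pathway gave a like picture: of 112 tested genes in 7 lists, 0 passed the adjusted threshold, 1 had an unadjusted p under 0.05 (1.82% of all genes did) and 4 had groups that did not overlap (5.9% of all genes did). These shares were no higher than those over all genes, so the genes named from the lists below are given as descriptions. The lists were drawn up with earlier results of these data known. Of 13 partners of the writers, 4 had a positive and 9 a negative log2 fold change, with a median of -0.11 (-0.023 without control 2) and no call. Usp7, a deubiquitinase that stabilises Dnmt1 and Uhrf1, had 1468, 3571 and 1149 normalised counts in controls and 813, 1150 and 836 in E3–E12 diet mice. Diet 1 and diet 3 lay below all controls, and diet 2 was level with control 3. The log2 fold change of Usp7 was -0.98 (SE 0.65, 95% CI -2.54 to 0.58), and -0.50 without control 2. Kdm1b, a histone demethylase needed for methylation of imprinted genes in oocytes, had 173, 572 and 445 against 50.3, 515 and 280. Its log2 fold change was -0.86 (SE 1.01), with -0.51 without control 2 and 0.10 without diet 1.

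Of 20 partners of the erasers, 11 had a positive and 9 a negative log2 fold change, with a median of 0.041 (-0.12 without control 2), 0 had an unadjusted p under 0.05 and 1 had groups that did not overlap, a share near the 5.9% of all genes. That gene was Gadd45b, a stress-induced gene linked to demethylation. It had 152, 0 and 156 normalised counts in controls and 209, 396 and 495 in E3–E12 diet mice. The 3 diet libraries were the highest, and control 2 was at 0. The means were 102 ± 88.7 and 366 ± 145 (SD, n = 3). The fitted log2 fold change of 3.58 (SE 1.97) depended on that 0, and was 1.16 without control 2. In the paper's DESeq2 analysis Gadd45b was listed among the genes higher in E3–E12 diet mice. Idh1, which makes the cosubstrate of Tet enzymes, had 154, 287 and 133 against 49.3, 163 and 62.7. Its log2 fold change was -1.17 (SE 0.71), and -0.83 without control 2.

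Among 11 other readers, 4 had a positive and 7 a negative log2 fold change, with a median of -0.065 (0.082 without control 2) and no call. Cxxc1, which binds unmethylated CpG, had 666, 4823 and 927 normalised counts in controls and 699, 798 and 853 in E3–E12 diet mice. Its log2 fold change of -0.88 (SE 0.86) became -0.0099 without control 2. Zbtb38, a zinc-finger reader of methylated DNA, showed the same high library, with 925, 4819 and 1093 against 1049, 1110 and 1156, and its log2 fold change turned from -0.62 (SE 0.78) to 0.13.

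Of 20 corepressor subunits that work with the readers, 5 had a positive and 15 a negative log2 fold change, with a median of -0.25 (-0.057 without control 2), 0 had an unadjusted p under 0.05 and 1 had groups that did not overlap, again near the 5.9% of all genes. That gene was Rbbp7, a histone-binding subunit of NuRD. It had 468, 244 and 359 normalised counts in controls and 117, 158 and 173 in E3–E12 diet mice, and every diet library lay below every control. The means were 357 ± 112 and 149 ± 28.9 (SD, n = 3), and the log2 fold change was -1.23 (SE 0.57, 95% CI -2.59 to 0.14; limma with Benjamini-Hochberg adjusted p = 0.999). It stayed between -1.47 and -1.01 when any 1 library was left out. Gatad2b, another NuRD subunit, was at 0 in 3 libraries, with 123.4, 0 and 638 in controls and 0, 183 and 0 in E3–E12 diet mice.

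One-carbon metabolism supplies the methyl donor, and 16 of its 25 tested enzymes had a positive and 9 a negative log2 fold change. Their median was 0.16 against 0.087 over all genes, 0.25 against -0.0042 without control 2, and -0.085 without diet 1. Of the 25, 1 had an unadjusted p under 0.05, against 1.82% of all genes, and 1 had groups that did not overlap, against 5.9%. The gene was Mthfd2 in both cases, and Mthfd2 is a mitochondrial folate enzyme. It had 44.4, 29.3 and 73.0 normalised counts in controls and 138, 141 and 119 in E3–E12 diet mice, with every diet library above every control. The means were 48.9 ± 22.2 and 133 ± 12.1 (SD, n = 3), and the log2 fold change was 1.52 (SE 0.59, 95% CI 0.10 to 2.93). It did not pass the threshold (limma unadjusted p = 0.0391, Benjamini-Hochberg adjusted p = 0.999), and it stayed between 1.21 and 1.85 when any 1 library was left out. Gnmt, which consumes the methyl donor, had 37.2, 318 and 6.52 against 52.7, 2.34 and 8.23 (log2 fold change -1.93, SE 1.60, and -0.52 without control 2).

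Many germline genes are kept silent in somatic cells by promoter methylation, and a list of them was read beside the machinery. Of 12 found in the table, 3 passed the filter on low values (Brdt, Sycp3 and Stag3), with 2 log2 fold changes positive, 1 negative and no call. Stag3 held the median of these 3, at 0.29 with all libraries and -0.43 without control 2. Brdt, a testis bromodomain protein, had 108, 5.05 and 38.9 normalised counts in controls and 26.1, 1.44 and 3.64 in E3–E12 diet mice. Its log2 fold change was -2.14 (SE 1.35), and -3.29 without control 2. Sycp3, of the meiotic chromosome axis, had 50.2, 0 and 9.25 against 69.4, 70.0 and 4.50 (log2 fold change 1.90, SE 1.68, and 0.40 without control 2). The groups overlapped in both.

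The gene most alike to each of the 9 across the 6 libraries was named among 17860 candidates by Pearson's r of log2 levels, as a description. These were Rhox4e for Dnmt1 (r = 0.992), Klf11 for Dnmt3a (0.994), Gm22655 for Dnmt3b (0.997), Gm23413 for Uhrf1 (0.976), Dsg2 for Tet1 (0.996), Tmed2 for Tet2 (0.984), Lap3 for Tet3 (0.999), Arih2 for Mbd1 (0.992) and Gm15886 for Mbd2 (0.982). With 6 libraries such values are common: between 4 genes (Uhrf1) and 237 genes (Tet3) had r above 0.95. Lap3 shared the high control 2 and low diet 1 of Tet3, with 365, 4520 and 520 normalised counts in controls and 195, 817 and 909 in E3–E12 diet mice.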

How the data were processed

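RNA-seq was done on microglia of 3 control and 3 E3–E12 diet litters. The submitters' processing notes name FastQC, STAR, featureCounts, DESeq2 and GRCm38. The deposited values are a signal, gene counts that the authors normalised and labelled as adjusted with sva. How that adjustment was made is not given in the sources used here. Genes above 0 in 1 library alone had whole multiples of a step (within 0.02; 88.3% to 98.2% of such genes), which gave the approximate depth, but 7.99% to 39.2% of other genes did, so reads were not recovered and no count test was run. The file's 6 value columns were mapped to samples by the labels.

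Values were tested as log2(value + 1) with limma 3.58.1 (R 4.3.3; lmFit and eBayes, two-sided) in 18007 genes with a mean of at least 10 over the 6 libraries, with Benjamini-Hochberg adjustment and a threshold of 0.1, and the script was tested on simulated data. Exact permutation tests used scipy 1.17.1. Gene models came from GENCODE M21. Named genes were the 9 members, the 2 genes with the smallest unadjusted p of each list, and the gene most correlated with each member. Where a list's gene fell outside that rule (Stag3, Ddx4, Mael, Tdrd1), or was a near copy or antisense gene of a member, it was named after its values were seen. The members and lists were chosen with earlier results of these data known. Alternatives were other pseudocounts, filters and scalings, limma-trend, the replicate number as a block, and leaving out each library. Intervals come from limma's moderated variance, which combines a gene's own spread between 3 litters per group with that of all genes. The values were already labelled as adjusted with sva, so the intervals may not cover the full spread between litters.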

Additional observations from a re-analysis of the deposited data

How the results depend on the processing

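No setting brought any of the 9 genes past the adjusted threshold or under an unadjusted p of 0.05, and 0 of all genes passed the adjusted threshold under any of them. By limma 327 genes had an unadjusted p under 0.05, against 156 with a mean of at least 100 normalised counts, 491 after quantile normalisation, and 276 to 551 when 1 library was left out (551 without control 1). The sign of 8 of the 9 log2 fold changes turned without at least 1 library. The leave-one-out ranges were -0.40 to 0.11 for Dnmt1, -0.42 to 0.46 for Dnmt3a, -2.30 to 0.45 for Dnmt3b, -0.0030 to 0.32 for Tet1, -0.12 to 1.32 for Tet2, -0.58 to 0.083 for Tet3, -0.36 to 0.63 for Mbd1 and -0.48 to 0.052 for Mbd2. They were -1.56 to 0.10 for Kdm1b and -1.06 to 0.13 for Zbtb38. Quantile normalisation turned Dnmt3a to 0.11 and Mbd1 to -0.17, and scaling to the same total turned Dnmt3a to 0.028. The median of the one-carbon list ranged from -0.085 to 0.32. The difference in log2 Dnmt to Tet ratio ranged from -0.52 to 0.45 and was 0.0080 without division by length. The differences in share ranged from -2.72 to 14.0 percentage points for Dnmt3a, from -2.06 to 2.72 for Tet2 and from -9.39 to 3.96 for Mbd2. Without division by length 2 of 9 ranks in the order by level were kept, which follows from the transcripts' unequal lengths; the cause of the other changes was not tested. Some values were low, such as Dnmt3b in diet 1 (roughly 15.2 reads) and Brdt in diet 2 (1.44 normalised counts). The part of depth in them was not tested.

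Same-numbered control and diet libraries deviated together with correlations of 0.26, 0.035 and 0.14, so the numbers were not taken to pair the samples. With the replicate block 468 genes had an unadjusted p under 0.05, no gene passed the adjusted threshold, and the log2 fold changes of the 9 genes were as without it (-0.33 for Tet3).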

Other observations

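The 12 germline genes silenced by promoter methylation were spread unevenly over the libraries. Diet 1 was above 0 in 11 of them and held the highest value in 9, while control 2 was above 0 in 3, and controls 1 and 3 in 8 and 9. Diet 2 and diet 3 were each above 0 in 4. The same order held among low genes in general: 1676 genes of the whole table were above 0 in diet 1 alone, against 77 in control 2 alone and 114 to 518 in each other library, and nothing particular to the germline genes is read from these counts. Ddx4, a germ cell helicase, had 47.5 normalised counts in diet 1 and at most 2.15 elsewhere, Mael had 38.5 there and at most 1.55 elsewhere, and Tdrd1 had 34.3 there and at most 3.89 elsewhere. Diet 1 was also the library with the lowest Dnmt3b (17.3 normalised counts) and with the fewest genes at 0 (3459). Its choroid plexus markers, 6 genes, summed to 40440 normalised counts, against 58.0 to 19017 in the other libraries. No test was made of these values, which belong to single libraries, and the part of the choroid plexus markers in them was not tested.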
